A study of Arabidopsis thaliana with 30 samples.

Results

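The response of Arabidopsis thaliana seedlings with a jmj15 mutation to antimycin A, an inhibitor of the mitochondrial respiratory chain, was measured by RNA sequencing of whole seedlings. JMJ15 belongs to the Jumonji demethylases and removes methyl groups from lysine 4 of histone H3. The genes described are all those of the authors' deposited table for jmj15, 3008 genes out of 6297 listed for any line of the study. The treated group was jmj15 (allele jmj15-2) seedlings aged 10 days, grown on plates, moved into liquid medium and given 50 µM antimycin A for 5 h, with 3 libraries. It was set against jmj15 seedlings of the same age under mock treatment, with 3 libraries, so both groups carried the mutation. The study holds 30 libraries of 5 lines. Of the others, a mutant of the cytokinin response factor CRF6 (crf6, allele crf6-2) and wild type (WT) are used for comparison, each with 3 antimycin A and 3 mock libraries. The labels name 1 allele per mutant and do not say whether replicate libraries come from independent cultures. The p-values therefore cover variation among these libraries, part of which may be technical.

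Antimycin A binds complex III and stops electrons from passing from ubiquinol to cytochrome c. Plants keep a bypass, the alternative oxidases, which pass electrons from ubiquinol directly to oxygen, and AOX1A is the usual reporter of retrograde signalling from a disturbed mitochondrion to the nucleus. NAC transcription factors released from membranes carry part of this signal and bind a promoter element known as the mitochondrial dysfunction motif.

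The authors listed a gene when its q was under 0.05 and its log2 fold change was over 1 in size, as the values show, so every gene described had to differ between the groups. Of the 23758 genes that their q-values imply they tested, 1574 were listed as higher under antimycin A (6.63%) and 1434 as lower (6.04%). A refit of the listed genes with limma passed an adjusted p of 0.05 for 1263 genes that rose (5.32% of those tested) and 926 that fell (3.9%). The refit uses the libraries that chose the genes, so it describes their errors and is not independent evidence. The values, called adjusted counts here, lie on the scale of read counts, but how the authors adjusted them is not given in the sources used here. Among the lowest, 68 to 79 values per library lay above 0 and up to 0.3 in the 3 antimycin A libraries and 71 in the third mock library, against 0 in the first and the second mock library, so they are not whole reads multiplied by 1 factor per library. Each log2 ratio below is log2((mean antimycin A + 1)/(mean mock + 1)), and each log2 change is the refit's difference of mean log2(value + 1), with its standard error (SE, 3 against 3 libraries). Both understate the change of genes near 0. "Rose" and "fell" are used only of genes past the refit.

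The listed increases included more large ratios than the decreases and had higher levels. The log2 ratio was at least 4 for 45 genes and at most -4 for 21, and it was at least 2 for 556 and at most -2 for 459. The higher genes had a median mean level of 457.4 adjusted counts and the lower ones 124.5. Antimycin A and mock libraries did not overlap for 2878 genes (95.7% of those listed), which the choice of genes favours. Counting values under 1e-10 as 0, all 3 antimycin A libraries were at 0 for 80 genes and all 3 mock libraries for 62, and a further 5 to 81 values per library lay between 0 and 1. Across listed genes, log2 values correlated at r between 0.972 and 0.976 among antimycin A libraries, between 0.959 and 0.967 among mock libraries, and between 0.778 and 0.832 across treatments, as a description of libraries that share the gene choice. The authors' own log2 fold changes nearest their threshold were 1.001 for AT1G26930 and -1.002 for IRX6. Under a scaling of the libraries by median of ratios over the listed genes, the median log2 change moved by -0.50 from 1.03. The split became 934 that rose and 1333 that fell. No listed gene changed direction, which the choice of genes with changes over 1 in size favours. This scaling was computed over genes all chosen for a change, so it cannot show which scale is right.

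**Figure D1:**
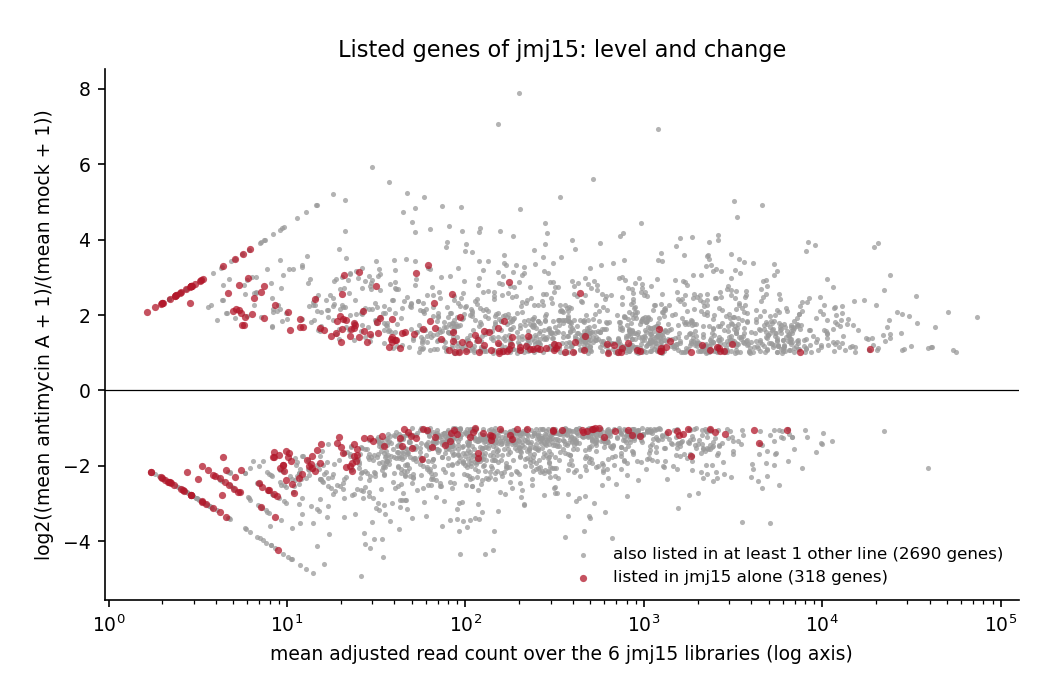
Each point is 1 of the 3008 genes listed in jmj15, with its mean adjusted read count over 6 libraries on a log axis and its log2 ratio of antimycin A to mock. The 318 genes listed in jmj15 alone have a median level of 26.99 adjusted counts, far to the left of the 1125 genes listed in all 5 lines, whose median is 516.1.

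Among genes at or above the median level of 223.7 adjusted counts whose groups did not overlap, the 10 largest increases were led by an enzyme of detoxification. GSTU3, a tau glutathione transferase, had 2527, 2868 and 1748 adjusted counts under antimycin A, against 9.11, 42.3 and 4.47 under mock, a log2 change of 7.45 (SE 0.66, adjusted p = 0.00022). AT1G71520, annotated as an integrase-type DNA-binding protein, had 1147, 1068 and 829, against 14.2, 31 and 13.9. MAPKKK19, a mitogen-activated protein kinase kinase kinase, had 717, 841 and 423, against 22.1, 19.8 and 11.8. Every antimycin A library of these genes was more than an order of magnitude above every mock library.

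ASPGB1, which encodes an asparaginase, had 6213, 8897 and 3464 adjusted counts under antimycin A, against 189, 179 and 203 under mock, a log2 change of 4.91 (SE 0.3). ABCG40, a transporter known for the import of abscisic acid, had 9795, 9486 and 7405, against 167, 396 and 313. DIN2, a beta-glucosidase of the dark-inducible genes, had 9487, 6201 and 3396, against 76.5, 254 and 451 and a log2 change of 4.82 (SE 0.61). The first antimycin A library was the highest for DIN2 and the third the lowest, still far above every mock library. The other 4 were AT3G25190, annotated as a vacuolar iron transporter family protein (log2 change 4.43, SE 0.43), AT1G17147, which carries a VQ motif (4.41, SE 0.28), the beta-glucosidase BGLU28 (4.18, SE 0.2) and AT4G33666, an uncharacterised protein (4.77, SE 0.87). AT4G33666 missed the threshold without the first or the second antimycin A library, with an adjusted p of up to 0.071.

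The 10 largest decreases by the same rule included 3 expansins. EXPA5, an expansin that loosens walls during growth, had 45.3, 71.1 and 78.6 adjusted counts under antimycin A, against 920.2, 829.6 and 843 under mock, a log2 change of -3.75 (SE 0.25, adjusted p = 7.3e-05). EXPA11 had 655, 571 and 526, against 6047, 6470.1 and 6986. EXPA8 had 317, 337 and 307, against 2448, 2699 and 3239. The groups did not overlap for any of the 3 expansins, and EXPA8 and EXPA11 varied little within each. The cellulase-type endoglucanases GH9C2 (log2 change -3.52, SE 0.12) and GH9B8 (-3.33, SE 0.21) and the laccase LAC7 (-3.36, SE 0.26) also fell.

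The lowest log2 ratio of this group, -3.9, belonged to AT5G45950, annotated as a GDSL-like lipase, with 87, 56.1 and 103 adjusted counts under antimycin A, against 1355, 1168 and 1188 under mock. The cytochrome P450 gene CYP702A5 had 33.7, 55.3 and 46.6, against 386, 1245 and 404, with the second mock library well above the other mock libraries. AT3G20380, a TRAF-like protein, had a log2 change of -3.32 (SE 0.4), and UGT72E2, a glucosyltransferase of monolignols, one of -3.17 (SE 0.25). All 20 genes of these rankings were listed in all 5 lines.

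**Figure D2:**
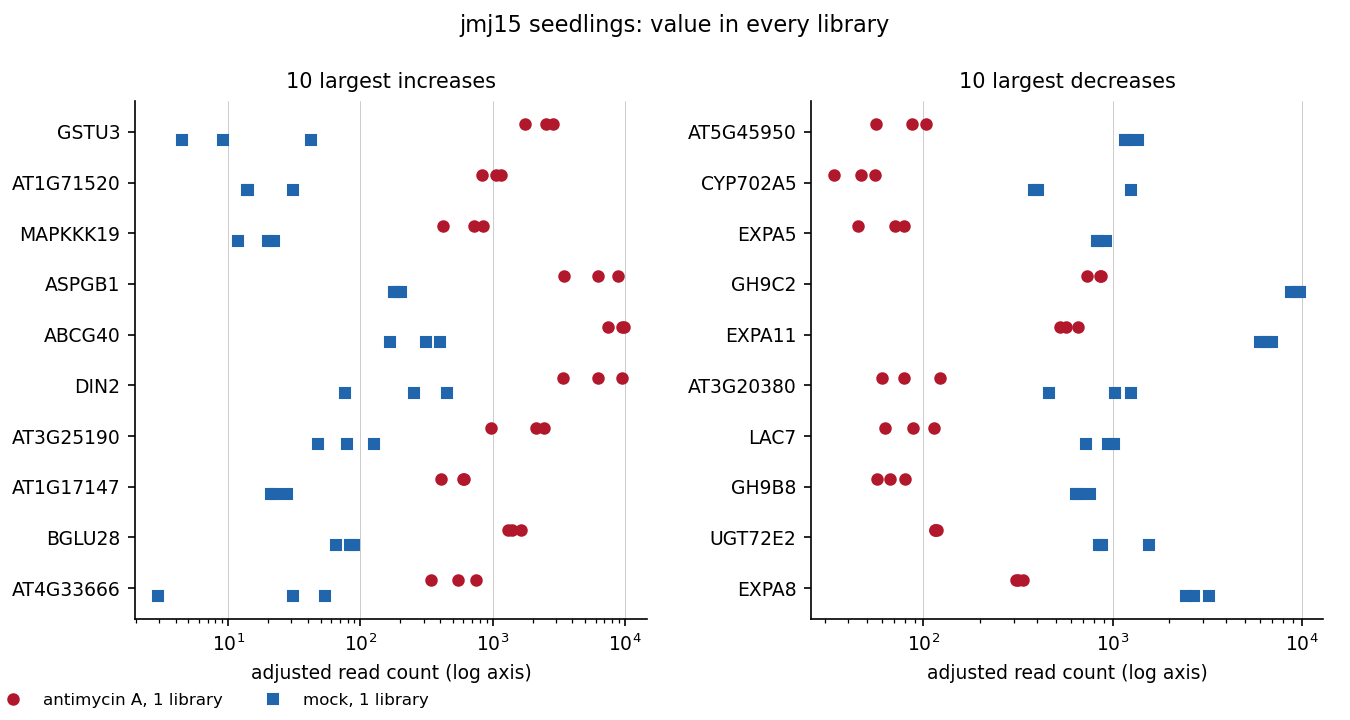
Adjusted read count in every jmj15 library on a log axis for the 10 largest increases and the 10 largest decreases, with antimycin A and mock libraries as separate points. The groups do not overlap for any of the 20 genes, as the choice required; GSTU3 lies between 1748 and 2868 under antimycin A and between 4.47 and 42.3 under mock.

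JMJ15 itself was not among the listed genes, so the table holds no value with which to check the mutation. None of 32 genes for Jumonji and LSD1-type demethylases and H3K4 methyltransferases was listed, nor any of 14 genes of complex III and cytochrome c, the target of the drug and its electron acceptor. Of 12 genes for SnRK1 subunits and cytokinin response factors, CRF1 alone was listed. It had 28.6, 77.5 and 82.9 adjusted counts under antimycin A, against 148, 135 and 135 under mock, and did not pass the refit (adjusted p = 0.15). KIN10 and KIN11, the catalytic subunits of SnRK1, and CRF6 were not listed. A gene that is not listed either missed the authors' thresholds or was not tested, and it cannot be called unchanged.

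The bypass of complex III rose. Of 12 genes for alternative oxidases and alternative NAD(P)H dehydrogenases, 5 rose and none fell, where 5.32% of all genes tested rose and 3.9% fell. AOX1A had 42157, 47989 and 36366 adjusted counts under antimycin A, against 9479, 9453 and 10927 under mock, a log2 change of 2.08 (SE 0.14, adjusted p = 7.3e-05). AOX1D had 5078, 5239 and 2702, against 113, 627 and 557. The groups did not overlap for either gene, but the third antimycin A library and the first mock library stood below the others of their group for AOX1D. AOX1B had a log2 change of 2.22 (SE 0.3), and the dehydrogenases NDB2 and NDA2, which feed electrons into the ubiquinone pool without complex I, had log2 ratios of 1.89 and 1.59. AOX1C, AOX2, NDA1, NDB1, NDB3, NDB4 and NDC1 were not listed. AOX1D missed the threshold without the first antimycin A library (adjusted p up to 0.0553).

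Of 20 genes known from the response to mitochondrial dysfunction, 16 rose and none fell, and the count was 16 without any 1 library. The listed members were all higher, with a median log2 ratio of 2.09 against 1.69 over all genes listed as higher. UGT74E2, a glycosyltransferase of indole-3-butyric acid, had 41663, 43066 and 30892 adjusted counts under antimycin A, against 1922, 2880.3 and 2826 under mock. CYP81D8, a cytochrome P450 gene used as a marker of oxidative stress, had 39581, 43068 and 25993, against 1962, 2914 and 2919.6. AT5G14730, an uncharacterised gene, had 4190.0, 5031 and 3424, against 294, 345 and 409.9. No antimycin A library of these genes came near a mock library, and the third one was the lowest each time. The log2 change was 3.93 for UGT74E2 (SE 0.2), 3.79 for CYP81D8 (SE 0.23) and 3.38 for the glutathione transferase GSTU25 (SE 0.19). Log2 ratios were 3.06 for the sulfotransferase gene SOT12, 2.1 for OM66, a protein of the outer mitochondrial membrane, and 1.99 for TIM17-1, a subunit of the inner membrane translocase.

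NAC regulators moved with them, and 9 of 18 rose and none fell. NAC055, a factor of stress and senescence, had 1661, 1343 and 841 adjusted counts under antimycin A, against 145, 154 and 184 under mock, ATAF2 had 22225, 24260.0 and 17576, against 4780.5, 3703 and 5171, and NAC102 had 10689, 12119.7 and 8195, against 2154, 2119 and 2509. Each was higher in every antimycin A library. NAC013, which binds the AOX1A promoter, and NAC053, which is also tethered to membranes, had log2 ratios of 1.58 and 1.93. NAC017, the membrane-bound activator of AOX1A, was not listed.

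The mitochondrial dysfunction motif was searched on both strands in 1 form only, CTTG and CAAG with any 5 bases between them. The window was the 250 bases before the annotated gene start. This form was found before 1.42% of higher genes, 0.697% of lower genes and 0.74% of all 27437 nuclear protein-coding genes. It was found before 4 of the 20 genes of the mitochondrial dysfunction list. NDB2, CYP81D8 and UPOX, whose log2 ratio was 1.84, are shown because they rose and hold the motif. The sequences are the 150 bases before the gene start in RefSeq's TAIR10.1, written 5′ to 3′ on the strand of the gene, with the motif in capitals. NDB2 is at chr4:2572277-2572426 on the plus strand, CYP81D8 at chr4:17571744-17571893 on the minus strand and UPOX at chr2:9254228-9254377 on the plus strand.
NDB2: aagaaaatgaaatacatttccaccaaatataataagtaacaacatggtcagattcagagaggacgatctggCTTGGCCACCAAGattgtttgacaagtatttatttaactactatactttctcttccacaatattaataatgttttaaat
CYP81D8: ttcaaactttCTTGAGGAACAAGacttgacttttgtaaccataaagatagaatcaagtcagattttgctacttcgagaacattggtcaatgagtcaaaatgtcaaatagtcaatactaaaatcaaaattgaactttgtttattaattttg
UPOX: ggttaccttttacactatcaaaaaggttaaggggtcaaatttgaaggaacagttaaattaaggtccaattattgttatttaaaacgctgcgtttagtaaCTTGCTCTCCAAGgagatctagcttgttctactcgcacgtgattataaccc

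Of 41 tau and phi glutathione transferases, which couple glutathione to reactive compounds, 18 rose and 2 fell. After GSTU3, the largest was GSTU4, with 5076, 5154 and 4482 adjusted counts under antimycin A, against 274, 269 and 305 under mock, a log2 change of 4.11 (SE 0.13). GSTU9 had 10168, 11848 and 8146, against 878, 1061 and 1419. The libraries of GSTU4 lay close together in both groups. The phi enzyme GSTF14 went the other way, with 256, 269.6 and 77.7, against 712, 1738 and 1789, and a log2 change of -2.89 (SE 0.53). GSTU28 also fell, at a low level (log2 ratio -1.8). In 5 of the 6 refits without 1 library 1 of these genes fell, and GSTU2 was at 1.12, 10.8 and 3.42 under antimycin A and listed at 0 in every mock library (adjusted p = 0.16). Several of these genes stand in tandem and resemble each other, and how the authors' counting treated reads shared between copies is not given in the sources used here.

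Heat shock genes rose broadly, 25 of 35, and none fell, with a median log2 ratio of 1.89 over the listed members. DREB2A, a transcription factor of drought and heat responses, had 2268, 2570.0 and 1741 adjusted counts under antimycin A, against 217, 209 and 174 under mock, a log2 change of 3.44 (SE 0.19). The chloroplast small heat shock protein HSP21 had 2632, 1966 and 1698, against 175, 473 and 159. The inducible chaperone HSP70B had 8191, 9169 and 7356, against 827, 1598 and 867. The second mock library was the highest mock library for both chaperones. The heat stress factors HSFA7B and HSFA2 had log2 ratios of 3.25 and 2.01, the disaggregase HSP101 1.91 and HSP90.1 1.89.

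The small chaperones showed the same high mock library. HSP17.6C had 4181, 3006 and 2952 adjusted counts under antimycin A, against 1078, 2223 and 825 under mock, and HSP17.6II had 4009, 3134 and 2728, against 725, 1721 and 553. HSP22 had 1899.7, 1379.5 and 1564, against 598, 1316 and 376, so its second mock library lay just below its lowest antimycin A library. HSP17.6C lost its call without any 1 library other than the second mock library (adjusted p up to 0.206), HSP17.6II without the first or the second antimycin A library or the first mock library (up to 0.112), and HSFA7B without the first antimycin A library (0.063). HSP22 missed the refit (log2 change 1.26, adjusted p = 0.12). Without the second mock library, 26 genes of the list rose, and leaving out any 1 library gave between 19 and 26, the lowest without the first antimycin A library. HSFA6B was listed as lower, at 18.7, 2.49 and 8.95, against 30.8, 34.3 and 25.5, and missed the refit too (adjusted p = 0.2). In the endoplasmic reticulum list, 2 of 16 genes rose, the unfolded protein response factor BZIP60 (log2 ratio 1.46) and the co-chaperone ERDJ3A (1.04), and 1 without the first antimycin A library.

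The core of the heat shock element, searched on both strands as GAANNTTC, lay within 250 bases before the start of 14.1% of higher genes, 7.25% of lower genes and 9.55% of all nuclear protein-coding genes. It was found before 9 of the 35 genes of the heat shock list. HSFA2, HSP17.4 and HSP17.6C are shown as a factor and 2 small chaperones that rose and hold the core, in capitals, within the 150 bases before the gene start in RefSeq's TAIR10.1. HSFA2 is at chr2:11135474-11135623 on the plus strand, HSP17.4 at chr3:16984868-16985017 on the minus strand and HSP17.6C at chr1:19980149-19980298 on the plus strand.
HSFA2: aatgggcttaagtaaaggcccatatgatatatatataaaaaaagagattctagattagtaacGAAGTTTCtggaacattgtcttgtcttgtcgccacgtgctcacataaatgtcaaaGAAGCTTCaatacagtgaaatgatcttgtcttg
HSP17.4: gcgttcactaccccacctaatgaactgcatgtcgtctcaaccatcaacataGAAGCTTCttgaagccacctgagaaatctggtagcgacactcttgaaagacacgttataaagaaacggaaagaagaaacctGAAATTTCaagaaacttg
HSP17.6C: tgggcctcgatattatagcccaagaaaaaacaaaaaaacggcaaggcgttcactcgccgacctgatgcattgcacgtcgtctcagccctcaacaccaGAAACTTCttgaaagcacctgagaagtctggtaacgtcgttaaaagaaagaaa

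Genes of carbon starvation and of the response to the kinase SnRK1 mostly rose, 15 of 26, and 1 fell. BCAT2, a transaminase of branched-chain amino acid breakdown, had 8411, 4446 and 3153 adjusted counts under antimycin A, against 945, 1105 and 1537 under mock. MCCA, a carboxylase of leucine breakdown, had 21500.5, 15656 and 9850.3, against 3249, 3557 and 4190.2. The glutamate dehydrogenase GDH2 had 88963, 94534 and 63176, against 17205, 20061 and 21093. The first antimycin A library was the highest for BCAT2 and MCCA, and the third was the lowest for all 3 genes. Summed over the listed members, the antimycin A libraries held 354236, 301704 and 206697 adjusted counts. DIN6, an asparagine synthetase and a common reporter of SnRK1 activity, had 16617, 7061 and 6529, against 4062, 4071 and 6037, and did not pass the refit (adjusted p = 0.18). Among trehalose phosphate synthase genes, TPS5 fell (log2 ratio -1.35) while TPS8 (1.4) and TPS11 (1.8) rose.

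Defence genes rose in part. Of 28 genes for salicylic acid, immunity and camalexin, 9 rose and none fell. PAD3, the last enzyme of camalexin synthesis, had 7063, 5795 and 5871 adjusted counts under antimycin A, against 456, 483 and 744 under mock, and CYP71A12, a cytochrome P450 of indole metabolism, had 1264, 1084 and 533, against 33.7, 276 and 104. WRKY40 and WRKY33, regulators of defence, had log2 ratios of 2.09 and 1.61. The salicylic acid markers were near 0 and did not pass. PR1 had 4.23, 0.13 and 13 under antimycin A and was listed at 0 in every mock library, and PR2 had 4.37, 19.9 and 26.3, against 3.38, 1.79 and 0.025. The call of CYP71A12 was lost without the first or the second antimycin A library or the third mock library (adjusted p up to 0.146), and PR1 passed without the second antimycin A library (0.0387). ICS1, EDS1, PAD4 and NPR1, which make or relay salicylic acid, were not listed.

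Of 28 jasmonate genes, 10 rose and none fell. CYP94B3, which oxidises and inactivates the active jasmonate conjugate, had 1001, 1365 and 827 adjusted counts under antimycin A, against 62.9, 92.1 and 55.3 under mock. LOX2, a lipoxygenase of jasmonate synthesis, had 4459, 7033 and 9216, against 1921, 1695 and 1085. The repressor JAZ9 had 1914, 2022 and 1749, against 427, 402 and 348. JAZ9 varied little within its groups, while the third antimycin A library of LOX2 was the highest and the third mock library the lowest. The repressor JAZ8 stood lower, at 25.1, 31.9 and 11.5, against 0, 0 and 4.15, and its call was lost without the first or the second antimycin A library or the first or the second mock library (adjusted p up to 0.112). JAZ4 was listed as lower without passing the refit (adjusted p = 0.14).

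Of 20 ethylene genes, 7 rose and 1 fell. The response factors ERF109 and ERF6 had log2 ratios of 4.83 and 2.83, and ACS2, a synthase of the ethylene precursor, had 2.78. The oxidase gene ACO1, which makes ethylene from that precursor, fell with 772, 952 and 882 adjusted counts under antimycin A, against 1678, 2177 and 1733 under mock. Of 22 abscisic acid genes, 5 rose and 1 fell, with 3 that rose without the second or the third antimycin A library and 2 that fell without the third. The phosphatases HAI1 and HAI2, which restrain abscisic acid signalling, had log2 changes of 1.89 (SE 0.35) and 1.75 (SE 0.37). The synthesis gene NCED9 had 67.1, 55.7 and 57.8, against 8.35, 0 and 8.4. The response gene RD29A fell, with 2778, 2260.5 and 3037, against 5227, 6838 and 4653. Its groups did not overlap. NCED9 lost its call without any 1 antimycin A library (adjusted p up to 0.146), and HAI2 without the second or the third antimycin A library or the second mock library (up to 0.0858).

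Cytokinin genes went the other way, and 10 of 26 fell and none rose. CYP735A2, the hydroxylase that makes trans-zeatin forms, had 88.2, 134 and 89.1 adjusted counts under antimycin A, against 614, 821 and 836 under mock, a log2 change of -2.87 (SE 0.24). CYP735A1 had 14.7, 20.8 and 2.54, against 51.3, 118 and 146, with the lowest value in the third antimycin A library. The synthesis genes IPT3 and IPT5, the receptor AHK4 and the type-A response regulators ARR4, ARR5, ARR6, ARR7 and ARR16 had log2 ratios between -1.87 and -1.28. Between 6 and 9 genes of the list fell when 1 library was left out, the lowest count without the first antimycin A library. IPT5 lost its call without any 1 library (adjusted p between 0.0561 and 0.162), and CYP735A1 without the first antimycin A library or the second or the third mock library (up to 0.121). The synthesis gene IPT7 was listed as higher, at 26.3, 46.2 and 18.1, against 8, 14.6 and 4.34, and did not pass (adjusted p = 0.17).

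Auxin genes moved both ways, with 5 of 25 that rose and 3 that fell. GH3.3, one of the enzymes that conjugate auxin to amino acids, had 53843, 49215 and 55582 adjusted counts under antimycin A, against 14998, 14242 and 16922 under mock. GH3.1 had 336, 387 and 204, against 48.9, 41.3 and 34, and was listed in jmj15 alone. Their relatives GH3.2 and GH3.5 had log2 ratios of 1.69 and 1.61. The influx carrier LAX3 had 832, 768 and 805, against 2484, 3546 and 2696, and its relative AUX1 a log2 ratio of -1.14. Of the Aux/IAA repressors, IAA30 rose (2.27) and IAA6 fell (-1.65).

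Wall-loosening genes fell as well, 15 of 40 expansins and xyloglucan enzymes, while XTH23 and XTH24 rose. Summed over the listed members, the antimycin A libraries held 77266, 71847 and 62074.5 adjusted counts and the mock libraries 74307, 73438 and 86807, so the sums overlapped. XTH24 alone had a mean level of 38913 over the 6 libraries. Without the first antimycin A library or the third mock library, 1 of the list rose. EXPA17, an expansin of lateral root emergence, had 2.1, 0.054 and 4.33 adjusted counts under antimycin A, against 35.7, 85.3 and 36.2 under mock. XTH31 had 623, 379 and 357, against 3063, 3228 and 3032, and XTH8 had 1039, 916 and 1036, against 4395, 4589 and 4904. All 3 were lower in every antimycin A library. A further 6 members were listed as lower without passing the refit. EXPA7, EXPA18, XTH12, XTH13, XTH14 and XTH26 had log2 ratios between -2.98 and -1.26, and in each the third mock library was far below the other mock libraries.

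Of 10 root hair markers, 7 were listed as lower, 2 fell and 1 rose. The third mock library was the lowest mock library for 7 of the 8 listed markers and the highest for LRX2. RSL4, the factor that sets root hair length, had 6.28, 5.57 and 4.5 adjusted counts under antimycin A, against 53.2, 48.7 and 23.57 under mock, and LRX2, a leucine-rich repeat extensin, had 254, 317 and 271, against 1357, 1185 and 1422. PRP1, a proline-rich wall protein, had 6.43, 28.3 and 11.3, against 239, 264 and 33.5, and missed the refit (adjusted p = 0.052). The NADPH oxidase RHD2 rose, with 479, 537 and 503, against 256, 281 and 148. Summed over the listed members, the markers held 812, 1197 and 879 adjusted counts under antimycin A, against 3161, 2871 and 1784 under mock. Without the third mock library, 6 of the 10 fell, and without any 1 antimycin A library none rose. In whole seedlings, fewer cells of a type and less RNA per cell cannot be told apart.

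Of 14 genes of the endodermis and suberin, 3 fell and none rose. PER64, a peroxidase of the Casparian strip, had 21, 26.6 and 22.3 adjusted counts under antimycin A, against 182, 321 and 174 under mock, and the strip protein gene CASP5 had a log2 ratio of -2.3. Without the third mock library or the third antimycin A library, 1 gene of the list fell. CASP5 lost its call without the first or the third antimycin A library or the first or the third mock library (adjusted p up to 0.111). Of 23 nitrogen genes 3 were listed, and of 21 iron genes 6, where 12.7% of all genes tested were listed. The ammonium transporter AMT1;3 and the nitrate transporter NRT2.1 fell, 2 of 23 nitrogen genes, with NRT2.1 at 12.7, 21.2 and 34, against 68.7, 119 and 131, and 1 of the list fell in 4 of the 6 refits without 1 library. Of 21 iron genes, IMA1, a peptide of iron deficiency, and BTS, a ligase that limits the response, rose, whereas NAS1, which makes nicotianamine, and the transporter IRT2 fell. In the iron list 1 gene rose in each refit without 1 library other than the second mock library. None of 22 leaf photosynthesis genes was listed. Markers are listed only where they differed between the groups, so the labelled tissue could not be checked.

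Of 12 circadian clock genes, 5 rose and none fell, and the 5 rose without any 1 library. CCA1 and LHY, the paired morning regulators, had 2265, 2308 and 1839 adjusted counts under antimycin A, against 441, 511 and 503 under mock and 1293, 1427 and 1399.7, against 349, 322 and 339. The related factors RVE1 and RVE8 had log2 ratios of 2.5 and 1.83, and PRR9, which represses CCA1 and LHY, had 1.41. The evening genes TOC1, GI, ELF3, ELF4 and LUX were not listed.

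**Figure D3:**
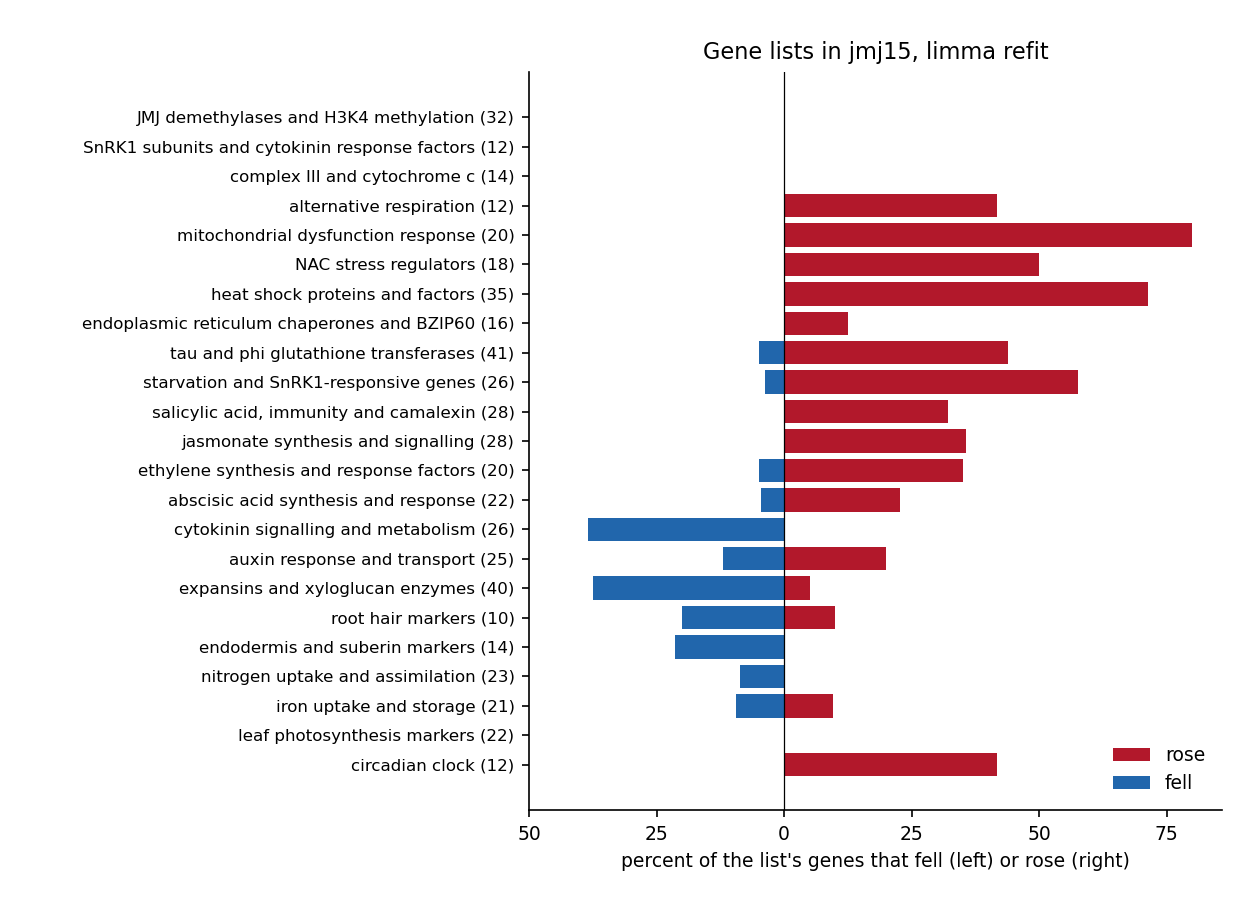
For each gene list, with its number of genes in brackets, the bars give the percent of genes that rose (red, to the right) or fell (blue, to the left) in jmj15 under antimycin A. The mitochondrial dysfunction list has 16 of 20 members that rose, the heat shock list 25 of 35, and the cytokinin list 10 of 26 that fell.

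W-box letters, the core bound by WRKY factors, were searched on both strands as TTGACC or TTGACT. They lay within 250 bases before the start of 40.2% of higher genes, 27.5% of lower genes and 28.4% of all nuclear protein-coding genes. The G-box CACGTG was found before 8.9%, 5.86% and 6.49% in the same order, and GCCGCC, bound by ethylene response factors, before 2.97%, 0.488% and 1.87%. AOX1A and AGC2-1, a kinase gene induced by oxidative signals, are shown as genes that rose and hold W-box letters, in capitals, with 150 bases for AOX1A and 250 for AGC2-1 before the gene start in RefSeq's TAIR10.1. AOX1A is at chr3:7906371-7906520 on the plus strand and AGC2-1 at chr3:9195084-9195333 on the plus strand. A match describes letters and is not a bound site.
AOX1A: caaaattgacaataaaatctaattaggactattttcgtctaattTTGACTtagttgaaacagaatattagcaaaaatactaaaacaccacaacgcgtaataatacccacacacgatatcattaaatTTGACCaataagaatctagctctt
AGC2-1: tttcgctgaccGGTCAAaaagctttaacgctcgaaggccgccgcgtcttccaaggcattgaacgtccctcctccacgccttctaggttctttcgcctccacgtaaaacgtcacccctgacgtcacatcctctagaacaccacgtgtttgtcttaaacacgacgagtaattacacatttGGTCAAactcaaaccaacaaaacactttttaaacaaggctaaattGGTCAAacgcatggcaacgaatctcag

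The 318 genes listed in jmj15 alone were mostly weakly expressed. Of them 168 were listed as higher and 150 as lower, and 103 (32.4%) had a mean level under 10 adjusted counts, against 1.33% of the 1125 genes listed in all 5 lines. Their median q was 0.00695, against 2.51e-16 for genes in all 5 lines, and 37.1% passed the refit, against 93%. A gene missing from the other tables may lie just short of a threshold there, so being listed alone does not show that its response differs, and no test of this was possible from the tables.

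At or above the median level with groups that did not overlap there were 65 genes of this kind, 20.4% of the 318, against 1484 (49.3%) of all 3008 listed genes. EPR1 (AT2G27380), an extensin-like wall protein, had 417, 1262 and 587 adjusted counts under antimycin A, against 123, 172 and 79.8 under mock. GulLO5, of the gulonolactone oxidase family, had 1755, 2652 and 1102, against 567, 637 and 587. IBH1, a helix-loop-helix protein that restrains cell elongation, had 2012, 2249 and 1714, against 671, 772 and 947. The second antimycin A library was the highest for all 3 genes. CYP709B2, a cytochrome P450 gene, had 148, 575 and 266, against 131, 132 and 97.7, and did not pass the refit (adjusted p = 0.2). The zinc finger gene AT2G26695 and the hydrolase gene AT2G39420 had log2 ratios of 1.27 and 1.26. AT2G39420 lost its call without the first antimycin A library or any 1 mock library (adjusted p up to 0.102), and GulLO5 without the first antimycin A library (0.0672).

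On the lower side, AT2G18190, annotated as a P-loop nucleoside triphosphate hydrolase, had 592, 1104 and 848 adjusted counts under antimycin A, against 3655, 1767 and 3072.2 under mock. COR413-PM1, a cold-regulated membrane protein, had 2604, 2160.3 and 2549, against 5296, 7301 and 6429, and the receptor kinase gene CR4 had 328, 316 and 424, against 825, 809.8 and 886. The libraries of CR4 lay close together in both groups, and those of AT2G18190 did not. ANNAT4, an annexin, NAXT1, a nitrate efflux transporter, and AT3G10040, annotated as a transcription factor, had log2 ratios of -1.18, -1.17 and -1.2. Members of the lists above that were listed in jmj15 alone were HSFA6B, PR1, ACO1, NCED5, RD29A, GH3.1, XTH23 and IMA1.

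Of the genes listed in jmj15, between 51.4% and 74.4% were listed in each of the other lines, and 1125 were listed in all 5. Of the 3008 genes, 2057 were also listed in WT, which is 68.4% of the jmj15 genes and 59.1% of the WT genes, and 2055 of them had the same direction. With crf6, 2188 were shared, 72.7% of the jmj15 genes and 62.7% of the crf6 genes, and 2185 had the same direction. In the authors' deposited table, the size of the log2 fold change was larger in jmj15 than in WT for 55.6% of shared genes and larger than in crf6 for 56.4%. The lines labelled snrk1a, a mutant, and SnRK1aOX, an overexpression line, shared 2237 (74.4%) and 1547 (51.4%) of the jmj15 genes, and in the authors' deposited table the change was larger in size in jmj15 than in snrk1a for 46.5% of shared genes and than in SnRK1aOX for 67.2%.

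**Figure D4:**
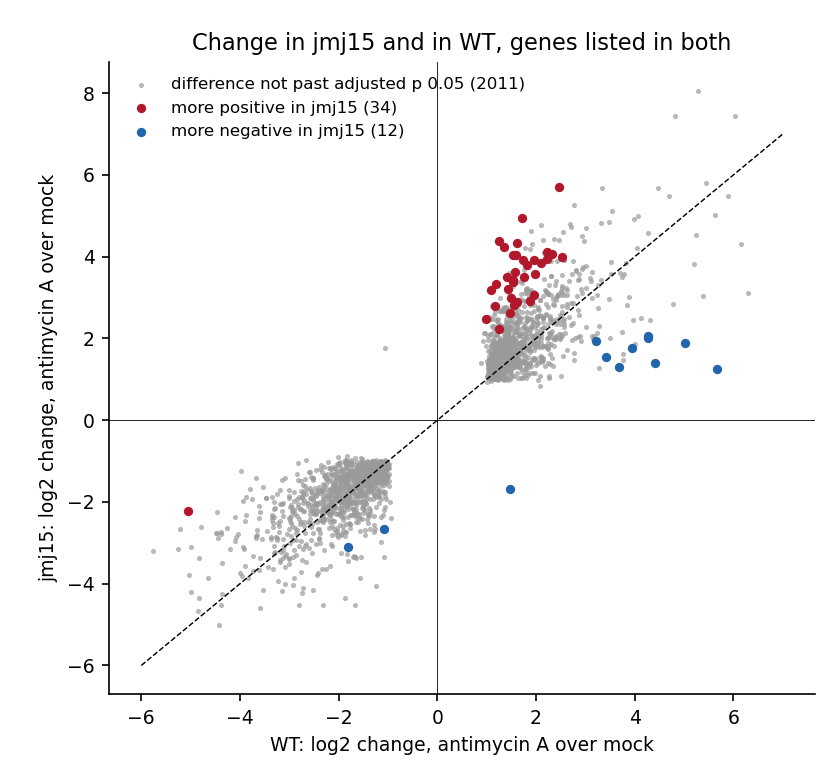
Log2 change under antimycin A in jmj15 (vertical axis) against WT (horizontal axis) for the 2057 genes listed in both, with the dashed line marking equal change. HSP22, at 1.26 in jmj15 and 5.67 in WT, lies farthest below the line, and AT1G71520, at 5.7 in jmj15 and 2.47 in WT, well above it.

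The difference of the responses, jmj15 minus WT, was tested with limma over the 2057 shared genes, from changes computed within each table. It was more positive for 34 genes (1.65%) and more negative for 12 (0.583%), together 2.24%, at an adjusted p of 0.05, and 293 genes had an unadjusted p under 0.05. Genes listed in only 1 of these 2 lines could not be tested, so their differences are not counted. These counts are fragile. Without limma's trend of variance with level both were 0. With 1 library left out, the more positive ones ran from 3 (the first WT antimycin A library) to 102 (the third WT mock library). The more negative ones ran from 2 to 17 (the first WT mock library). Under median-of-ratios scaling the counts became 5 and 1207. That scaling was computed over genes all chosen for a change, and it moved the median difference of the 2057 genes from 0.14 to -1.24.

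Among called genes at or above the median level of the jmj15 table, the most negative differences were those of small heat shock proteins. HSP22, a chaperone of the endoplasmic reticulum, had 1899.7, 1379.5 and 1564 adjusted counts under antimycin A, against 598, 1316 and 376 under mock in jmj15, while WT had 591, 439.5 and 1032 under antimycin A, against 17.2, 16.2 and 5.5 under mock. The difference was -4.41 (SE 0.67, adjusted p = 0.0088), and it passed without any 1 library. HSP17.6C had 4181, 3006 and 2952, against 1078, 2223 and 825 in jmj15, while WT had 1236, 1317 and 2070.0, against 123, 39.6 and 69.6, a difference of -2.99 (SE 0.57, adjusted p = 0.021). Mock libraries of jmj15 were listed far above those of WT for both genes, in tables that the authors normalised separately.

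HSP17.6II (-3.13, adjusted p = 0.043), the small chaperone gene AT1G59860 (-2.36, adjusted p = 0.021) and the heat stress factor HSFA2 (-2.26, adjusted p = 0.032) followed, each a difference on the log2 scale. HSFA2 had 1215, 1309 and 893, against 256, 353 and 238 in jmj15, while WT had 1005, 959 and 1445, against 103, 43.7 and 40.3. Of the 25 heat shock list genes tested, 21 differences were negative, with a median of -1.60 against 0.14 over all 2057 genes. Of the list, 8 were called, with 6 without the second jmj15 mock library, 10 without the third WT mock library, 0 without the trend and 24 under median-of-ratios scaling. Against crf6, 22 of 26 differences of the list were negative, with a median of -0.63.

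Among called genes at or above that median level, the 5 largest differences toward a more positive response in jmj15 were in genes listed at lower mock values there than in the separate WT table. AGC2-1 had 3048, 3641 and 2291 adjusted counts under antimycin A, against 144, 221 and 180.2 under mock in jmj15, while WT had 3462, 3284 and 4111 under antimycin A, against 1436, 1344 and 870.1 under mock. Its difference was 2.43 (SE 0.32, adjusted p = 0.0088), and it passed without any 1 library. AT1G71520 had 1147, 1068 and 829, against 14.2, 31 and 13.9 in jmj15, while WT had 1035, 1075 and 1094, against 331, 241 and 88, a difference of 3.23 (SE 0.59, adjusted p = 0.02). The antimycin A values of the lines overlapped for both genes and the mock values did not. AT3G46080, a zinc finger gene (2.52, adjusted p = 0.035), ABCB11, an ABC transporter (2.18, adjusted p = 0.02), and the uncharacterised AT4G37030 (2.13, adjusted p = 0.019) followed. Other than HSP22 and AGC2-1, the named genes that differed from WT missed the threshold in 5 to 9 of the 12 fits without 1 library.

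In the mitochondrial dysfunction list, all 14 differences from WT were positive, with a median of 0.87, but under median-of-ratios scaling 5 were positive and 9 negative, with a median of -0.55. The 6 called as more positive were UGT74E2, CYP81D8, GSTU25, AT5G14730, AT5G43450 and SOT12. UGT74E2 had 41663, 43066 and 30892, against 1922, 2880.3 and 2826 in jmj15, while WT had 54036, 56719 and 58889.5, against 18045, 15019 and 11426, a difference of 1.97 (SE 0.29, adjusted p = 0.0088). AOX1A had 42157, 47989 and 36366, against 9479, 9453 and 10927 in jmj15, while WT had 55979.8, 56522 and 61289, against 29653, 28542 and 18322, and its difference of 0.86 did not pass. For both genes, the values listed for jmj15 stood below those for WT under mock and also, by less, under antimycin A. The 2 lines were normalised separately, so these levels are not a measured difference. The scaling moved the median difference of all shared genes from 0.14 to -1.24, so the sign of this list's difference depends on it. The heat shock list's median went from -1.60 to -3.01, and a downward shift could not turn a median already negative. Under both scalings, the median of the mitochondrial dysfunction list lay above that of all shared genes and the heat shock median below it.

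**Figure D5:**
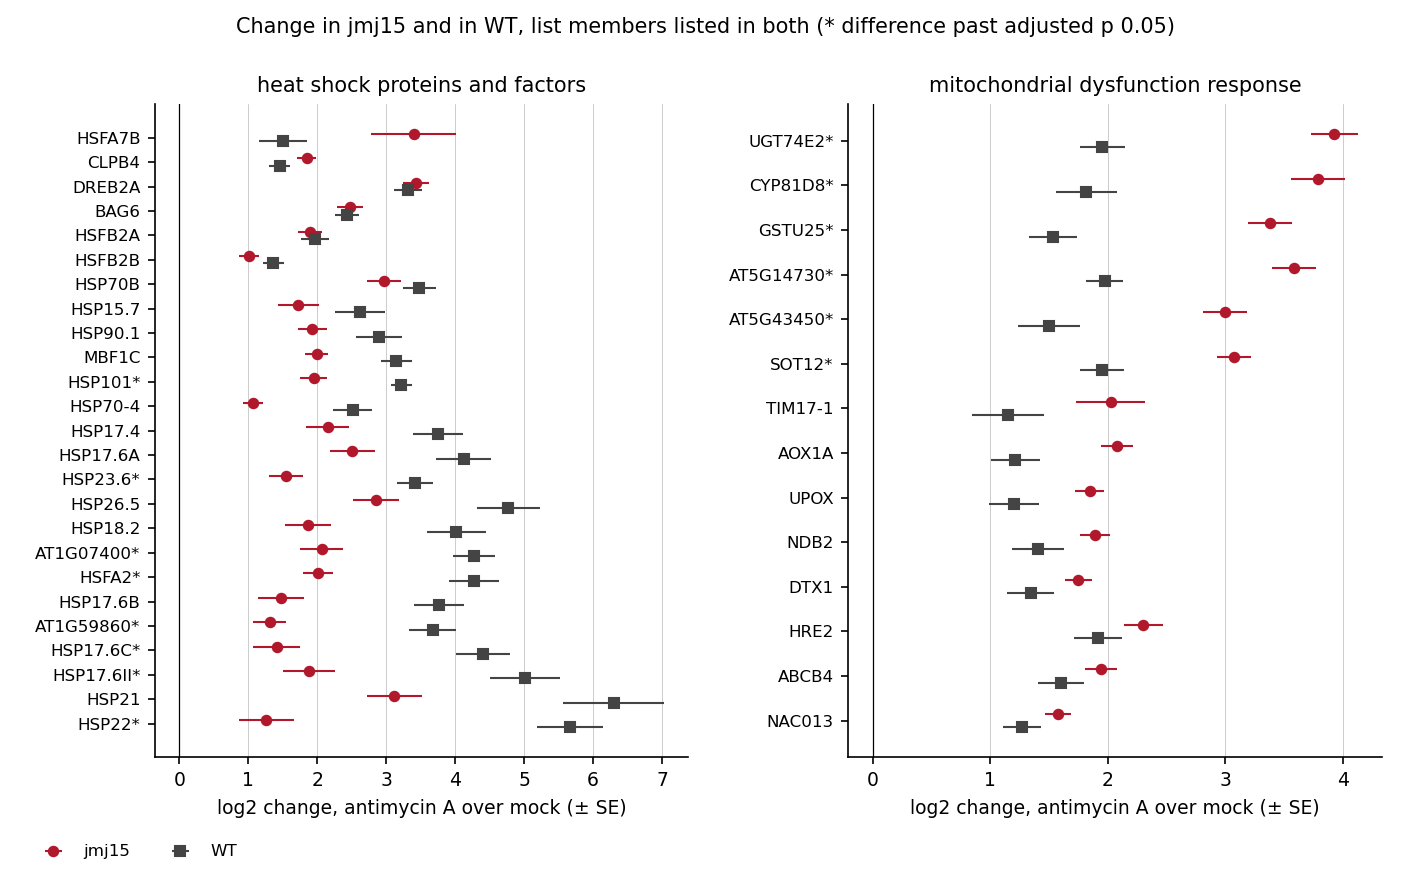
Log2 change under antimycin A in jmj15 and in WT with standard errors for the genes of the heat shock and mitochondrial dysfunction lists tested in both, a star marking an adjusted p of the difference under 0.05. Of the heat shock genes 21 of 25 lie lower in jmj15 than in WT, and of the mitochondrial dysfunction genes 14 of 14 lie higher.

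Against crf6, 2 of 2188 genes had a different response (0.0914%), and 222 had an unadjusted p under 0.05. GSTU4 had 5076, 5154 and 4482 adjusted counts under antimycin A, against 274, 269 and 305 under mock in jmj15, while crf6 had 3015, 4253 and 3864 under antimycin A, against 562, 627 and 648 under mock, a difference of 1.53 (SE 0.2, adjusted p = 0.01). UGT74E2 had 41663, 43066 and 30892, against 1922, 2880.3 and 2826 in jmj15, while crf6 had 42294, 51866 and 45723, against 9676, 12607 and 10743, a difference of 1.84 (SE 0.26, adjusted p = 0.01). The mock values listed for jmj15 were below those listed for crf6 for both genes, but the 2 lines were normalised separately. Neither passed without the second jmj15 antimycin A library or without the third crf6 antimycin A library, and under median-of-ratios scaling neither of the 2 was called.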

How the data were processed

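Each line and treatment has 3 libraries of whole-seedling RNA. Groups were taken from the sample titles, and 18 libraries of jmj15, crf6 and WT were used. Another 12 columns of library values carry names that no label gives and were not used. TRIzol extraction and a standard Illumina preparation were used, per the labels' protocols. The submitters' processing notes name the aligner Bowtie 0.12.2 and the build TAIR10. How genes were counted, normalised and tested is not given in the sources used.

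Each deposited table lists, for genes past the authors' thresholds, a signal per library on the scale of read counts, adjusted by the authors in a way not given in the sources used here. Beside it stand the authors' log2 fold change, p-value and q-value, from an unnamed test. Each table was normalised separately, so tests stay within a table, and depth per library is unknown.

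Values were fitted with limma 3.58.1 (R 4.3.3) with a trend on log2(value + 1), two-sided, and p-values were adjusted by Benjamini-Hochberg over the 23758 genes the authors' q-values imply. Differences between lines are differences of these changes, adjusted over the genes listed in both. The fits were tested on simulated data. Genes were matched to RefSeq's TAIR10.1 by ID, 2985 of 3008 as nuclear protein-coding genes. The 23 lists hold 509 genes. The members and lists were chosen with earlier results of these data known.

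Named genes are the 10 largest changes each way and 6 each way among genes listed alone, at or above the median level without overlap, up to 4 largest per list with its defining members, and the largest called differences at or above the median level (up to 5 each way for WT). Others named were chosen after their values were seen. Alternatives were other pseudocounts (0.5 and 10), a mean of 10 or more, no trend, median-of-ratios scaling, a replicate block, adjustment over the listed genes alone, stricter thresholds, a promoter window of 100 bases and leaving out each library.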

Additional observations from a re-analysis of the deposited data

Results flagged for a closer look

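The responses below differed between jmj15 and another line by a test of the difference itself, on the log2 scale. Against WT, the difference was 3.23 for AT1G71520, 2.52 for AT3G46080, 2.43 for AGC2-1, 2.18 for ABCB11 and 2.13 for AT4G37030. It was -4.41 for HSP22, -3.13 for HSP17.6II, -2.99 for HSP17.6C, -2.36 for AT1G59860 and -2.26 for HSFA2. Against crf6 it was 1.84 for UGT74E2 and 1.53 for GSTU4. Of the 10 genes that differed from WT, AGC2-1 and HSP22 passed in each of the 12 fits without 1 library. HSP17.6II and AT3G46080 missed the threshold in 9 of them and the other 6 in 5 to 8. Without limma's trend none of the 10 was called, and under median-of-ratios scaling neither of the genes that differed from crf6 was.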

How the results depend on the processing

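No change of the 109 genes named by rule turned sign under any alternative run, and none of the 12 called differences named did. For the changes, the choice of genes with changes over 1 in size favours this. The balance of the counts did turn under median-of-ratios scaling, with 934 genes that rose and 1333 that fell. The differences of the mitochondrial dysfunction list from WT had a median of 0.87 and, under that scaling, of -0.55. All 5 differences of the alternative respiration list from WT were positive, and under that scaling 1 was positive and 4 were negative. The refit counted between 1006 and 1168 genes that rose and between 686 and 784 that fell without 1 library, against 1263 and 926. Adjusted over the listed genes alone, 1546 rose and 1377 fell. Among single named changes, 1315 values under alternatives kept their side of the threshold, 70 lost it and 30 gained it, and among named differences 140 kept it and 76 lost it. Differences from WT (34 more positive, 12 more negative) became 0 and 0 without the trend and 5 and 1207 under median-of-ratios scaling, and ran from 3 to 102 and from 2 to 17 without 1 library, with 13 and 17 without the first WT mock library. Differences from crf6 (2 and 0) became 1 and 1 without the trend, 3 and 139 under median-of-ratios scaling, and ran from 0 to 19 and from 0 to 1 without 1 library. Replicate numbers did not pair the samples: the correlations of deviations were -0.0605, 0.0755 and 0.00301, and replicate 2 alone correlated best with its own number. With the replicate block, 1213 genes rose and 878 fell, 31 and 13 differed from WT, and 5 and 0 from crf6. Over a log2 fold change of 1.5, the authors' calls were 974 higher and 811 lower, and genes listed alone 95 and 92; at a q under 0.01 the genes listed alone were 105 and 73. Without the third mock library, chosen after seeing the data, 6 root hair genes fell, 1 gene of the expansin list rose and 1 endodermis gene fell. Within 100 bases, the shares for higher, lower and all genes were 0.58%, 0.139% and 0.31% for the mitochondrial dysfunction motif, 22.9%, 11.2% and 12.8% for W-box letters, 5.74%, 2.23% and 3.61% for GAANNTTC, 4.26%, 2.79% and 3.61% for CACGTG, and 1.42%, 0.209% and 0.744% for GCCGCC. The causes were not tested. Selected genes, unknown depth and 3 libraries per group limit what can be said of weakly expressed genes.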

Other observations

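Gene families described by their annotation moved together in places, as families of at least 20 genes chosen after their values were seen. Of 26 dirigent-like genes, whose proteins guide lignan and lignin coupling, 11 were listed as lower and 1 as higher. Of 77 GDSL-like lipases, 21 were lower and 1 higher, and of 62 peroxidases, 19 were lower and 8 higher. On the other side, 10 of 27 berberine-type oxidases were higher and 2 lower, 9 of 28 VQ proteins were higher and 1 lower, and 10 of 35 cysteine-rich receptor-like kinases were higher and 1 lower. Of 56 WRKY factors, 14 were higher and 2 lower, with log2 ratios of 4.1 for WRKY75 and 2.8 for WRKY45. These counts are of genes past the authors' thresholds, against 6.63% higher and 6.04% lower of all genes tested.

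Listed genes also stood side by side. Of 468 pairs of adjacent listed genes, 354 (75.6%) had the same direction, and 10 runs of at least 4 genes in 1 direction were found. All listed genes comprised 1574 higher and 1434 lower ones, and no expected number of pairs or runs was computed. In RefSeq's TAIR10.1, the longest was the glycosyltransferase cluster from UGT73C1 to DOGT1 at chr2:15410376-15425129, where 6 genes were higher, with log2 ratios from 1.08 to 3.53. Genes of 1 such cluster are near copies, and reads shared between them cannot be told apart here. Single-exon genes made up 28.9% of higher genes, 27.3% of lower genes and 21.5% of all nuclear protein-coding genes. All 21 listed IDs that begin with ATM were higher under antimycin A, and the annotation used gives them no name. Not all passed the refit. ATMG00630 missed it (adjusted p = 0.23) with groups that overlapped, and some levels were low, such as a mean of 2.91 adjusted counts for ATMG01110. How many such IDs the authors tested is not given.

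Outside the level rule, the largest log2 ratios were in GRX480, a glutaredoxin of defence signalling, with 471, 460.1 and 263 adjusted counts under antimycin A, against 0, 0 and 2.08 under mock, and in AT3G46270, annotated as a receptor kinase-like protein, with 0.0085, 2.15 and 0.018, against 34.1, 83.5 and 36.2. Both were chosen after their values were seen.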
